A study of Mus musculus with 6 samples.

Results

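The genes described here are 10 genes that mark basophils and mast cells: Cpa3, Prss34, Mcpt8, Fcer1a, Ms4a2, Hdc, Gata2, Cd200r3, Il3ra and Kit. They were picked by symbol with their values on these arrays known, so their values are a description and carry no test. Each was read by 1 probe set that the platform annotation gives to exactly 1 gene, and 10 of 10 were found among the 19935 genes measured in this way. Total RNA of 6 separately prepared samples of mouse natural killer (NK) cells was hybridised to Affymetrix arrays, 3 for IL-18 generated and 3 for unstimulated cells. IL-18 generated cells had been isolated on NK1.1, kept overnight with 300 IU of IL-2 and 25 ng/ml of IL-18, and sorted by flow cytometry as live cells with c-kit and NK1.1 on their surface but neither CD11b nor CD3. Unstimulated cells were sorted as live NK1.1 positive, CD3 negative cells of the opposite gate, CD11b positive and c-kit negative, so stimulus and gate cannot be told apart. Whether the unstimulated cells were cultured or received IL-2, and the strain, sex and age of the mice, are not stated in the labels, and p-values measure only the spread between these 6 preparations. Values are log2 and were centred for each probe set on the median of the 6 arrays, so differences can be read and expression levels cannot.

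Basophils circulate in blood and mast cells settle in tissues, and both store proteases and histamine in granules and carry the high-affinity IgE receptor, whose crosslinking releases the granules. Both grow in response to IL-3, and mast cells also depend on the c-kit receptor and its ligand, whereas basophils carry CD11b and little or no c-kit. The transcription factor GATA2 is needed to form both cell types and binds DNA words built around GATA. NK cells, in contrast, belong to the lymphoid lineage. In bulk RNA such as this, fewer cells of a type and less RNA per cell cannot be told apart.

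Promoter sequence is shown for members of the group because 8 of the 10 genes moved together across the arrays and GATA2 is itself among them. RefSeq windows on GRCm38.p6, from 250 bases before to 50 after a transcript start, were found for 10 of the 10 genes and searched on both strands for AGATAA and TGATAA, with overlapping matches counted separately. Of the 10 genes, 5 held a match (Cpa3, Prss34, Fcer1a, Ms4a2 and Cd200r3), in 5 of their 12 windows, while 18.6% of all 32851 windows of the same length held one. Ms4a2 held 3 matches and Cd200r3 held 2, and 3.26% of all windows held at least 2. The word began at position -46 in Cpa3 and at -31 in Prss34, counted from the base before the start as -1, in the orientation of the gene, and at -92 in Fcer1a in the opposite orientation. In Ms4a2 matches began at -224, -37 and -11. No match lay in the windows of Mcpt8, Hdc, Gata2, Il3ra or Kit. A match describes letters only and was not tested for binding. The stretches below run 5′ to 3′ along the gene and end before the outermost annotated start of the gene, which leaves out the matches of Ms4a2 nearest its start, and capitals mark the matches.
Cpa3, chr3:20242210-20242431, minus strand: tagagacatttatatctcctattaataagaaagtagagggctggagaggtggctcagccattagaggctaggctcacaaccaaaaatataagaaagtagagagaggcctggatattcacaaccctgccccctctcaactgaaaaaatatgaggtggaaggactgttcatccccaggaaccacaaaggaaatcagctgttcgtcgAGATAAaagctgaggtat
Prss34, chr17:25298144-25298393, plus strand: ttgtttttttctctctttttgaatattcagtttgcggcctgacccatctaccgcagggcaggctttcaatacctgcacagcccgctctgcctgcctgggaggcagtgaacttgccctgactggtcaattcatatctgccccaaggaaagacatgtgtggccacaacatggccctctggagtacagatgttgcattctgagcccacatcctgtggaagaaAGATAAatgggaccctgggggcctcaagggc
Fcer1a, chr1:173227233-173227479, minus strand: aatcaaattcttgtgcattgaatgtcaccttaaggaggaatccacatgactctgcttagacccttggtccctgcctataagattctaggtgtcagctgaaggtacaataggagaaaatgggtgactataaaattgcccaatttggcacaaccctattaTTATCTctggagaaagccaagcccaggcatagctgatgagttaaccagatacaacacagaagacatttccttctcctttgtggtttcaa
Ms4a2, chr19:11623791-11623969, minus strand: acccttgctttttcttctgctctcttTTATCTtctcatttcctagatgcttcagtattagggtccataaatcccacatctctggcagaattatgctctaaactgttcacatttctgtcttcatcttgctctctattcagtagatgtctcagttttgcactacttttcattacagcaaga

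The comparison asks how transcripts of IL-18 generated NK cells differ from those of unstimulated NK cells. Of the 10 genes, 8 lay lower on the 3 IL-18 arrays than on the 3 unstimulated arrays without overlap, Kit lay higher without overlap, and Il3ra overlapped. Among all genes the arrays did not overlap for 25.7% in the lower and 22.9% in the higher direction, 48.6% in either, and nothing is read from the members' count because they were chosen on these arrays. The 3 granule proteases differed most, by 17.8-fold to 19.2-fold, and they also varied most within the IL-18 group.

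**Figure D1:**
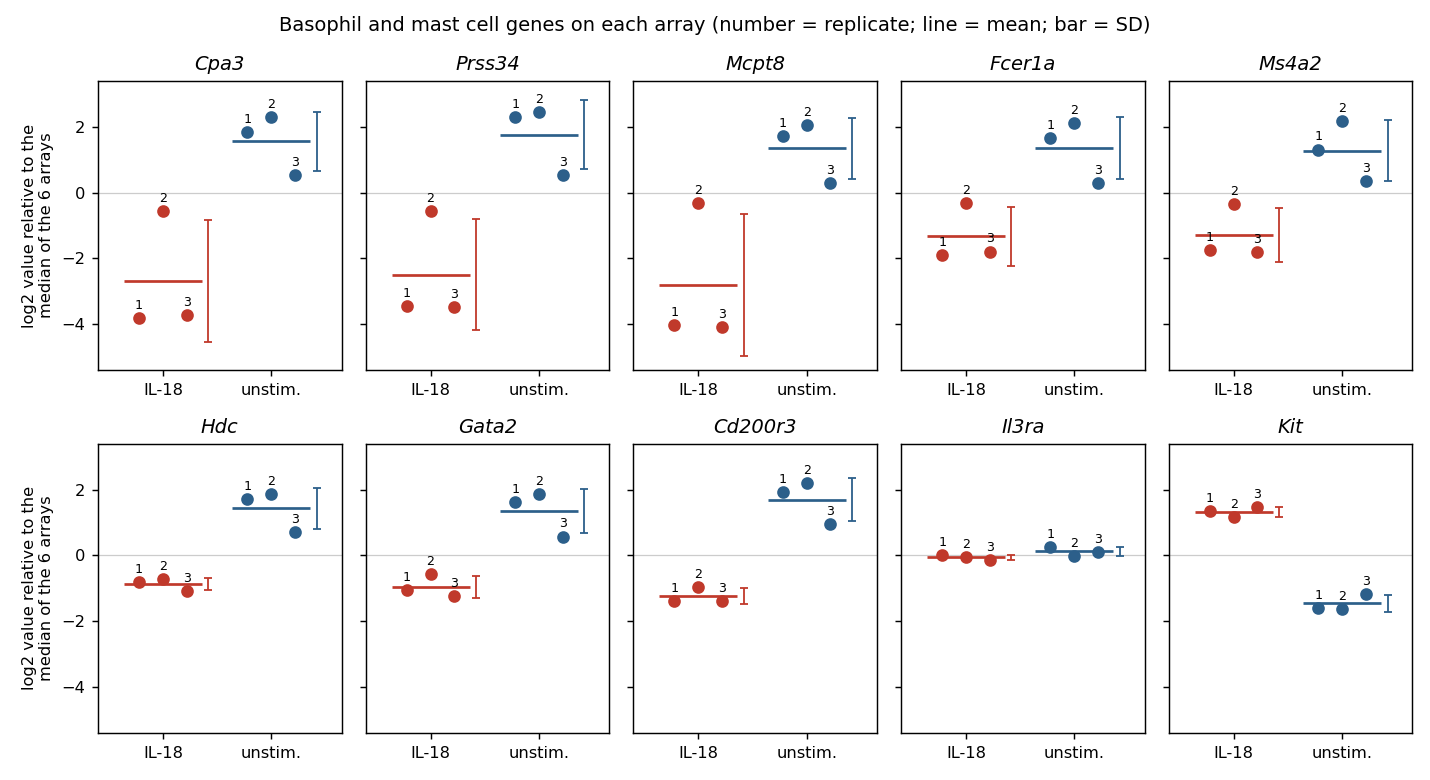
Log2 value of each of the 10 genes on the 3 IL-18 arrays (red) and 3 unstimulated arrays (blue), relative to the median of the 6 arrays, with the replicate number above each point, the group mean as a line and the SD as a bar. In the 8 genes from Cpa3 to Cd200r3, IL-18 replicate 2 is the highest IL-18 array and unstimulated replicate 3 the lowest unstimulated array.

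Cpa3 encodes carboxypeptidase A3, a metalloprotease of mast cell and basophil granules. Its values were -3.83, -0.55 and -3.71 in IL-18 replicates 1, 2 and 3 and 1.84, 2.30 and 0.55 in unstimulated replicates 1, 2 and 3. IL-18 replicate 2 stood far above the other IL-18 arrays and 1.105 below the lowest unstimulated array. The IL-18 mean was -2.70 ± 1.86 (SD, n = 3) and the unstimulated mean 1.57 ± 0.91 (SD, n = 3), a log2 difference of -4.26, or 19.2-fold lower in the IL-18 arrays.

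Prss34 encodes mast cell protease 11, a serine protease made by basophils. It read -3.45, -0.55 and -3.47 on the IL-18 arrays and 2.29, 2.45 and 0.55 on the unstimulated arrays. The groups did not overlap, and the same array of each group lay nearest to the other group as for Cpa3. The means were -2.49 ± 1.68 and 1.77 ± 1.06 (SD, n = 3 each), a log2 difference of -4.26.

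Mcpt8 encodes mast cell protease 8, which in spite of its name marks basophils in the mouse. Its IL-18 arrays read -4.02, -0.30 and -4.08 and its unstimulated arrays 1.72, 2.05 and 0.30. IL-18 replicate 2 and unstimulated replicate 3 were 0.60 apart, whereas IL-18 replicate 2 exceeded the mean of the other IL-18 arrays by 3.75, or 13.5-fold. With means of -2.80 ± 2.17 and 1.36 ± 0.93 (SD, n = 3 each), the log2 difference was -4.16. Mcpt8 belongs to a family of related proteases, and signal that probes share between relatives cannot be separated here.

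The chains of the IgE receptor differed by less than the proteases and in the same pattern. Fcer1a encodes the alpha chain, which binds IgE, and read -1.90, -0.31 and -1.79 on the IL-18 arrays and 1.67, 2.13 and 0.31 on the unstimulated arrays. The log2 difference was -2.70, from -1.33 ± 0.89 to 1.37 ± 0.95 (SD, n = 3 each), in the order IL-18 to unstimulated mean. Ms4a2 encodes the beta chain, which amplifies the signal, and read -1.73, -0.34 and -1.81 against 1.32, 2.20 and 0.34. Its log2 difference was -2.58, with means of -1.30 ± 0.82 and 1.29 ± 0.93 (SD, n = 3 each). For both chains IL-18 replicate 2 was again the highest IL-18 array, and the nearest arrays of the groups were 0.61 apart for Fcer1a and 0.69 for Ms4a2.

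Hdc, Gata2 and Cd200r3 were lower in the IL-18 arrays with less spread among them. Hdc encodes histidine decarboxylase, the enzyme that makes histamine. It read -0.81, -0.72 and -1.08 on the IL-18 arrays and 1.71, 1.88 and 0.72 on the unstimulated arrays, a log2 difference of -2.31 between means of -0.87 ± 0.19 and 1.44 ± 0.62 (SD, n = 3 each). The IL-18 arrays of Hdc lay close together, and unstimulated replicate 3 was low. Gata2 read -1.06, -0.58 and -1.23 against 1.62, 1.86 and 0.58, with a log2 difference of -2.31 between means of -0.96 ± 0.34 and 1.35 ± 0.68 (SD, n = 3 each). Cd200r3 encodes an activating receptor of the CD200 receptor family found on basophils and mast cells. Its arrays read -1.39, -0.95 and -1.37 against 1.93, 2.22 and 0.95, a log2 difference of -2.94 between means of -1.24 ± 0.25 and 1.70 ± 0.66 (SD, n = 3 each). Of the 8 genes Cd200r3 had the widest distance between the nearest arrays of the groups, 1.90.

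Il3ra and Kit went other ways. Il3ra encodes the alpha chain of the IL-3 receptor and read 0.02, -0.06 and -0.14 on the IL-18 arrays and 0.27, -0.02 and 0.12 on the unstimulated arrays. The groups overlapped, and the difference of -0.18 was of the order of the SDs of 0.08 and 0.14 (n = 3 each). Kit encodes c-kit, the antigen of the sort, so its direction follows the gates and is no finding. It read 1.35, 1.16 and 1.48 on the IL-18 arrays and -1.59, -1.62 and -1.16 on the unstimulated arrays, a log2 difference of 2.79 or 6.90-fold. The other gate that differed, CD11b, is encoded by Itgam, whose difference was -5.32 ± 0.11 (SE, limma adjusted p 1.99e-09). The direction of Itgam likewise follows the gates and is no finding. Klrb1c, which encodes the NK1.1 antigen positive in both gates, had a difference of -2.03 ± 0.11 (SE, limma adjusted p 3.28e-07).

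A pattern within the groups was shared by the 8 genes. In 8 of 8, IL-18 replicate 2 was the highest IL-18 array, unstimulated replicate 3 the lowest unstimulated array and unstimulated replicate 2 the highest of all. The 8 genes were singled out with these values known, so nothing is read from their count or from the ranks below. Among all genes, 1375 of 19935 (6.90%) had both IL-18 replicate 2 highest in its group and unstimulated replicate 3 lowest in its group. Because those 2 arrays hold the middle values of the 8 genes, centring on the median gives them equal and opposite values, and the centring itself adds nothing to differences between arrays.

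The excess of IL-18 replicate 2 over the mean of the other IL-18 arrays was 3.75 for Mcpt8, 3.22 for Cpa3 and 2.91 for Prss34, and these 3 genes ranked 1, 2 and 3 of the 19935. They also held ranks 1, 2 and 3 by SD among the IL-18 arrays. Fcer1a and Ms4a2 followed at ranks 7 and 8 of the excess, with 1.54 and 1.43. Over all genes the excess ran from -0.22 at the 5th to 0.19 at the 95th percentile. Gata2, at 0.57, Cd200r3, at 0.43, and Hdc, at 0.23, lay lower, at ranks 60, 128 and 645, while Il3ra was at 0.00 and Kit at -0.25.

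Unstimulated replicate 3 fell short of the mean of the other unstimulated arrays by more even amounts. The deviation was -1.82 for Prss34, -1.60 for Fcer1a, -1.58 for Mcpt8, -1.52 for Cpa3 and -1.41 for Ms4a2, which held ranks 2, 5, 6, 7 and 9 from the bottom of the 19935. It was -1.16 for Gata2, -1.12 for Cd200r3 and -1.07 for Hdc, at ranks 18, 22 and 24. Over all genes it ran from -0.22 to 0.29 between the 5th and 95th percentiles. Thus Hdc, Gata2 and Cd200r3 shared the low value of unstimulated replicate 3 and much less of the high value of IL-18 replicate 2.

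The next count is a description only, because the members were chosen with their values on these arrays known. Both deviations reached 1 in their directions for 8 genes of the 19935, and 5 of these were members: Cpa3, Prss34, Mcpt8, Fcer1a and Ms4a2. The other 3, picked out after their values were seen, were Ctsg, which encodes the granule protease cathepsin G, Slc7a8, an amino acid transporter, and Adgrg1, an adhesion receptor. Ctsg read -1.60, 0.05 and -1.90 on the IL-18 arrays and 1.27, 2.23 and -0.05 on the unstimulated arrays, so its groups overlapped.

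**Figure D2:**
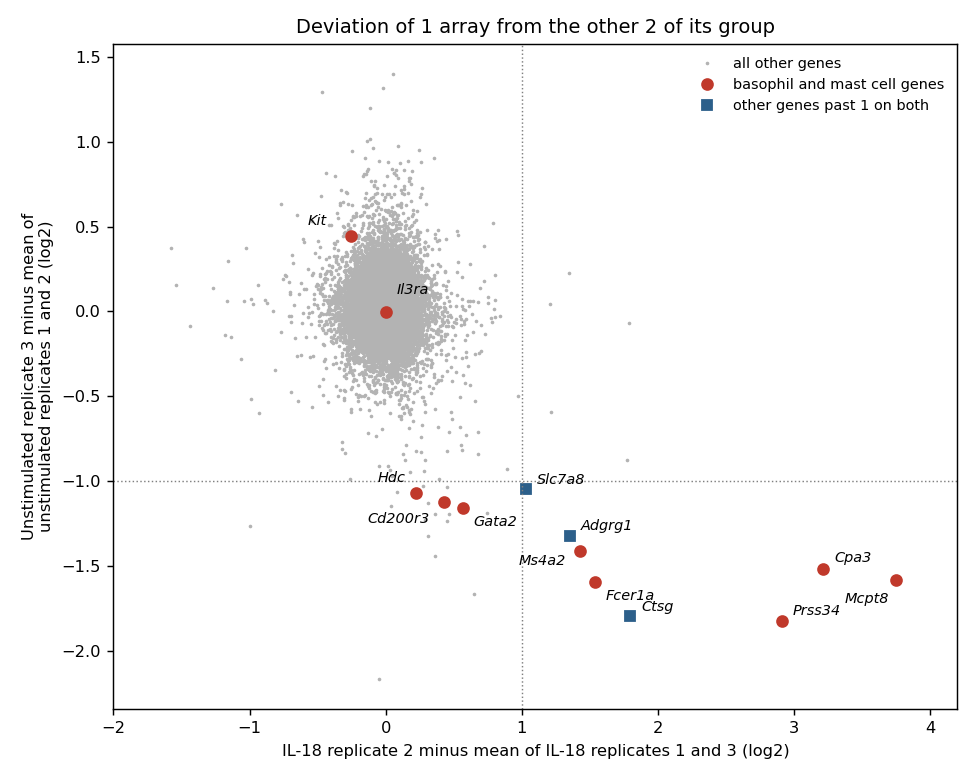
Each point is 1 of the 19935 genes, with the deviation of IL-18 replicate 2 from the mean of IL-18 replicates 1 and 3 on the x axis and that of unstimulated replicate 3 from the mean of unstimulated replicates 1 and 2 on the y axis, both in log2. Dotted lines mark 1 and -1. The 3 proteases lie farthest right, between 2.91 and 3.75, and 3 genes outside the group (squares) share the lower right field with 5 members.

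The size of the group difference of these genes depended on both arrays. Over all genes, array weights, which are lower for arrays that deviate more, were 1.79 for IL-18 replicate 2 and 1.09 for unstimulated replicate 3. The lowest weight, 0.46, was that of unstimulated replicate 2. Without IL-18 replicate 2 and unstimulated replicate 3, an alternative chosen after seeing the data, the log2 difference became -5.93 for Mcpt8, -5.84 for Cpa3 and -5.83 for Prss34, -3.74 for Fcer1a and -3.53 for Ms4a2. These are 3.43, 2.99, 2.98, 2.06 and 1.93 times the fold over all 6 arrays. For Hdc, Gata2 and Cd200r3 it became -2.74, -2.88 and -3.45. Leaving out IL-18 replicate 2 alone gave -5.41 for Mcpt8, -5.33 for Cpa3, -5.23 for Prss34, -3.21 for Fcer1a and -3.06 for Ms4a2. The direction of the 8 genes and of Kit could not change when a single array was left out, because their groups did not overlap.

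The genes closest to each member over the 6 arrays were found by Euclidean distance in log2, for the 9 members whose values spanned at least 2. Genes with provisional names, such as those ending in Rik, were left out of this search. For each protease the other 2 proteases were nearer than any gene searched outside the group. Outside it, Alox5ap was nearest to Cpa3 (distance 2.17), Csf2rb to Prss34 (1.98) and Csf2rb2 to Mcpt8 (2.57), and the chemokine gene Ccl9 also lay near Prss34 (2.08). Alox5ap encodes the activating protein of leukotriene synthesis, and Csf2rb and Csf2rb2 encode the beta chains through which IL-3 signals. Fcer1a and Ms4a2 were nearest to each other (0.40), followed by Slc7a8 (0.64) for Fcer1a and Ctsg (0.58) for Ms4a2. Hdc and Gata2 were likewise nearest to each other (0.37). Outside the group the lipoxygenase gene Alox15 was nearest to Hdc (0.38), ahead of Hgf (0.43) and Far2 (0.56). Hgf, the hepatocyte growth factor gene, was also nearest outside the group to Gata2 (0.50), followed by Cyp11a1 (0.54) and Alox5 (0.64), while the complement C3a receptor gene C3ar1 was nearest to Cd200r3 (0.52). Around Kit lay other genes: the amino acid transporter gene Slc1a4 (0.38), the activation marker Cd69 (0.41) and Zbtb32 (0.41).

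Genes other than the 10 were taken from lists of basophil and mast cell genes and tested with limma, with Benjamini-Hochberg adjustment over all genes. These lists and those below were also chosen with earlier results of these data known. Their counts and medians are therefore a description, and no list was tested as a set. At an adjusted p below 0.05, 16.7% of all genes were lower in the IL-18 arrays, 19.7% higher and 36.4% either. Of 25 other basophil genes measured, 19 fell, 2 rose and 4 did not pass, with a median log2 difference of -0.88 beside -0.06 for all genes. Without IL-18 replicate 2 and unstimulated replicate 3, 18 fell and 2 rose. The genes of this list that fell are not all particular to basophils. Among them, Itga2 is also counted with the NK cell markers below, Alox15 and Ccr3 with the eosinophil markers, and Fcer1g in other lists. Csf2rb read -2.38, -1.15 and -2.35 on the IL-18 arrays and 1.72, 1.77 and 1.15 on the unstimulated arrays, and fell with -3.51 ± 0.29 (SE, n = 3 per group, as below; adjusted p 5.91e-06). Csf2rb2 read -2.28, -0.54 and -2.35 against 1.38, 1.46 and 0.54 and fell with -2.85 ± 0.42 (adjusted p 0.000337). Since these beta chain genes are near-identical copies and probes may read both, the value of each alone is uncertain. Hgf fell with -2.53 ± 0.26 (adjusted p 2.86e-05). The genes that rose were Cd200r1, the inhibitory relative of Cd200r3, by 1.80 ± 0.10 (adjusted p 5.26e-07) and the cytokine gene Il6 by 1.66 ± 0.25 (adjusted p 0.000399). The cytokine gene Il4, a product of stimulated basophils, had -0.29 ± 0.08 (adjusted p 0.0119), and its call ended without IL-18 replicate 2, within a range of 0.0062 to 0.127 over 13 alternatives.

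Of 26 other mast cell genes measured, 8 fell, 1 rose and 17 did not pass, and their median log2 difference was -0.14. The share that passed in either direction was near the 36.4% of all genes. The genes that fell include some shared with other leukocytes. Alox5ap fell with -4.25 ± 0.27 (adjusted p 9.02e-07) and Alox5, the lipoxygenase it activates, with -2.51 ± 0.22 (adjusted p 8.65e-06). Cma1, which encodes a mast cell chymase, read -1.71, -1.53 and -1.4985 on the IL-18 arrays and 1.77, 2.19 and 1.4985 on the unstimulated arrays, and fell with -3.40 ± 0.15 (adjusted p 9.93e-08). IL-18 replicate 2 did not stand apart for Cma1, exceeding the mean of the other IL-18 arrays by 0.08. The leukotriene receptor gene Cysltr1 rose by 1.32 ± 0.16 (adjusted p 7.59e-05). Among the genes that did not pass were those of the connective tissue and mucosal mast cell proteases, Mcpt1 at -0.05, Mcpt2 at -0.14 and Mcpt4 at -0.14, the tryptases Tpsb2 at -0.16 and Tpsab1 at -0.08, and the receptor gene Mrgprb2 at -0.08. These paralogs can share probes, and a difference near 0 may come from a gene that is undetected in both groups.

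**Figure D3:**
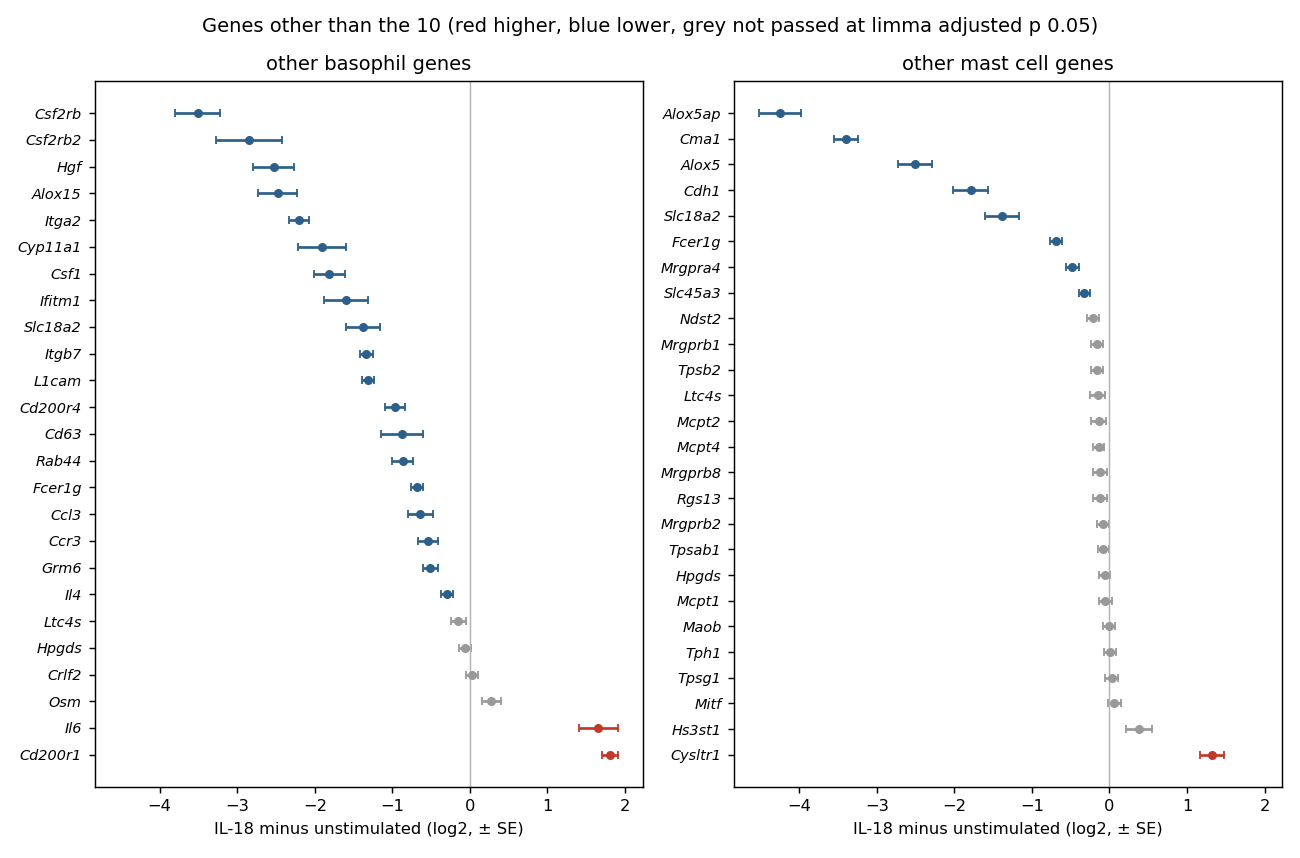
Log2 difference, IL-18 minus unstimulated, with its SE for 25 other basophil genes and 26 other mast cell genes, 3 arrays per group. Blue genes fell, red genes rose and grey genes did not pass at a limma adjusted p of 0.05, and 4 genes stand in both lists. Of the basophil genes 19 are blue, and of the mast cell genes 17 are grey.

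Most genes measured of the signalling chain below the IgE receptor fell. Of 19 genes, 14 fell, 0 rose and 5 did not pass, and the median was -0.66. At an unadjusted limma p below 0.05, 0 rose and 16 fell. The adaptor gene Lat fell with -1.33 ± 0.09 (adjusted p 1.38e-06), the kinase gene Btk with -1.02 ± 0.13 (adjusted p 0.000104) and Rasgrp4, an exchange factor for Ras made in mast cells, with -0.98 ± 0.15 (adjusted p 0.000428). Fcer1g, the gamma chain that the IgE receptor shares with receptors of NK and myeloid cells, fell with -0.69 ± 0.08 (adjusted p 4.31e-05). The list's excess of IL-18 replicate 2 had a median of -0.04, against 1.48 for the 8 genes. Most of these genes also serve NK and myeloid cells.

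In the receptor system of IL-3, IL-5 and GM-CSF, 4 of 11 genes rose, 3 fell and 4 did not pass. Among the receptor chains those that fell were Csf2ra, the alpha chain for GM-CSF, with -1.27 ± 0.13 (adjusted p 2.3e-05) beside Csf2rb and Csf2rb2, while the ligand gene Csf2 rose by 4.51 ± 0.17 (adjusted p 4.06e-08). Of the signalling genes in the list, the feedback inhibitor gene Cish rose by 2.89 ± 0.12 (adjusted p 5.87e-08). The kinase gene Jak2 rose by 0.94 ± 0.10 (adjusted p 2.69e-05) and Stat5a by 0.83 ± 0.08 (adjusted p 1.41e-05). The IL-18 generated cells had also received IL-2, and which cytokine these rises follow was not tested. The ligand gene Il3 (-0.12) and Il5ra (-0.08) did not pass. Of 13 genes of KIT ligand and signalling, 4 fell, 0 rose and 9 did not pass, the ligand gene Kitl itself at 0.06. Among all genes 36.4% passed in either direction, near the share of this list. At an unadjusted limma p below 0.05, 1 of the 13 rose and 5 fell, and with trended, robust variances 2 rose after adjustment. Those that fell were Pik3r1 with -0.86 ± 0.10 (adjusted p 6.98e-05), Cbl with -0.54 ± 0.08 (adjusted p 0.000484), Ptpn6 with -0.53 ± 0.11 (adjusted p 0.00252) and Grb2 with -0.22 ± 0.07 (adjusted p 0.0338, and 0.0256 to 0.186 over the alternatives, 8 of 13 of which ended its call, leaving out IL-18 replicate 2 among them).

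Around Hdc, of 12 genes of histamine and amine handling 4 fell, 1 rose and 7 did not pass. Among all genes 36.4% passed in either direction, near the share of this list. Hrh4, the histamine H4 receptor gene, read -1.01, -0.84 and -0.89 against 1.12, 1.57 and 0.84 and fell with -2.09 ± 0.15 (adjusted p 2.62e-06). Slc18a2, the vesicular transporter that loads amines into granules, fell with -1.38 ± 0.22 (adjusted p 0.000524). Hrh2 and Aoc1, the gene of diamine oxidase, had -0.25 and -0.24 (adjusted p 0.0371 and 0.0402), and their calls ended under 10 and 7 of 13 alternatives, over ranges of 0.0147 to 0.126 and 0.0198 to 0.16. Without either IL-18 replicate 1 or 3, or unstimulated replicate 1, the list had 2 genes that fell. Odc1, which makes the polyamine precursor putrescine, rose by 2.45 ± 0.09 (adjusted p 3.79e-08).

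Among 16 transcription factors that work with GATA2 or act in basophils and mast cells, 11 fell, 2 rose and 3 did not pass, and the median was -0.42. As a list they did not share the order of arrays seen for Gata2. Their median excess of IL-18 replicate 2 was -0.02 and their median deviation of unstimulated replicate 3 was -0.06, beside 0.57 and -1.16 for Gata2. Spi1, which encodes the myeloid factor PU.1, fell with -3.91 ± 0.14 (adjusted p 3.23e-08), Runx1 with -1.53 ± 0.09 (adjusted p 6.86e-07) and Lyl1 with -1.52 ± 0.12 (adjusted p 3.34e-06). Cebpa, a factor of myeloid cells, fell with -1.47 ± 0.13 (adjusted p 9.42e-06). Gata1, the GATA factor of erythroid cells, mast cells and eosinophils, had -0.44 ± 0.13 (adjusted p 0.0227), and its call ended without IL-18 replicate 1 or 3 (range 0.00298 to 0.0777). Mitf, a mast cell factor, was at 0.06 and Gata3 at -0.14, and neither passed. Ikzf2 rose by 0.92 ± 0.10 (adjusted p 4.28e-05) beside Stat5a.

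Markers of other cell types moved in the same arrays, and their part in the differences above was not tested. All values in this paragraph are means of list genes on an array unless said otherwise. Of 10 monocyte markers 9 fell (8 without IL-18 replicate 2 and unstimulated replicate 3), with list means from -1.60 to -1.36 on the IL-18 and from 1.37 to 1.98 on the unstimulated arrays, and Lyz2 and Cybb fell most (-7.16 ± 0.15 and -6.15 ± 0.19, adjusted p 1.99e-09 and 1.67e-08). Of 11 neutrophil markers 11 fell, with means from -1.15 to -1.0 and from 1.01 to 2.18, led by Ngp at -5.66 ± 0.32 (adjusted p 4.75e-07) and Cxcr2 at -3.65 ± 0.31 (adjusted p 6.8e-06). Of 13 stem and progenitor cell markers 9 fell and 1, Hlf, rose, with means from -0.66 to -0.25 and from 0.25 to 1.09, led by the granule genes Mpo at -3.23 ± 0.46 (adjusted p 0.000258) and Elane at -2.88 ± 0.44 (adjusted p 0.000417). Without IL-18 replicate 2 and unstimulated replicate 3 the rise of Hlf did not pass (adjusted p 0.0581, its highest of 13 alternatives, from 0.000853). Of 12 NK cell markers 12 fell, with means from -0.92 to -0.70 and from 0.63 to 0.94, Gzma with -4.10 ± 0.20 and Itga2 with -2.21 ± 0.13 (adjusted p 2.09e-07 and 5.05e-07).

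In list means, the order of arrays within groups was shared with the 8 genes by the progenitor markers and not by the monocyte, neutrophil or NK cell markers. The other basophil genes shared it too, at -0.52, -0.31 and -0.55 and at 0.61, 0.74 and 0.24. Means of the other mast cell genes, the IL-3, IL-5 and GM-CSF list and the eosinophil markers also put IL-18 replicate 2 highest and unstimulated replicate 3 lowest in its group. The 8 genes had a mean of -2.27, -0.54 and -2.32 on the IL-18 arrays and of 1.76, 2.13 and 0.54 on the unstimulated arrays. Monocyte markers were highest where the 8 genes were lowest among the unstimulated arrays, at 1.54, 1.37 and 1.98. Progenitor markers, which include Ctsg, had the order of the 8 genes in both groups: they read -0.46, -0.25 and -0.66 on the IL-18 arrays, highest in replicate 2, and 0.60, 1.09 and 0.25 on the unstimulated arrays, highest in replicate 2 and lowest in replicate 3. Taken singly, only Cd34, Mpo, Prtn3, Ctsg and Ms4a3 of the progenitor markers had IL-18 replicate 2 highest and unstimulated replicate 3 lowest in its group. Neutrophil markers were also highest in replicate 2 of both groups, at -1.05, -1.0 and -1.15 and at 1.01, 2.18 and 1.27, but lowest in unstimulated replicate 1. NK cell markers, at 0.63, 0.94 and 0.69, were highest in unstimulated replicate 2 as well, and in IL-18 replicate 3. The median excess of IL-18 replicate 2 was 1.48 for the 8 genes, 0.16 for progenitor, 0.13 for NK cell, 0.06 for monocyte and 0.03 for neutrophil markers. These medians describe lists of which the 8 genes were chosen with their values known.

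**Figure D4:**
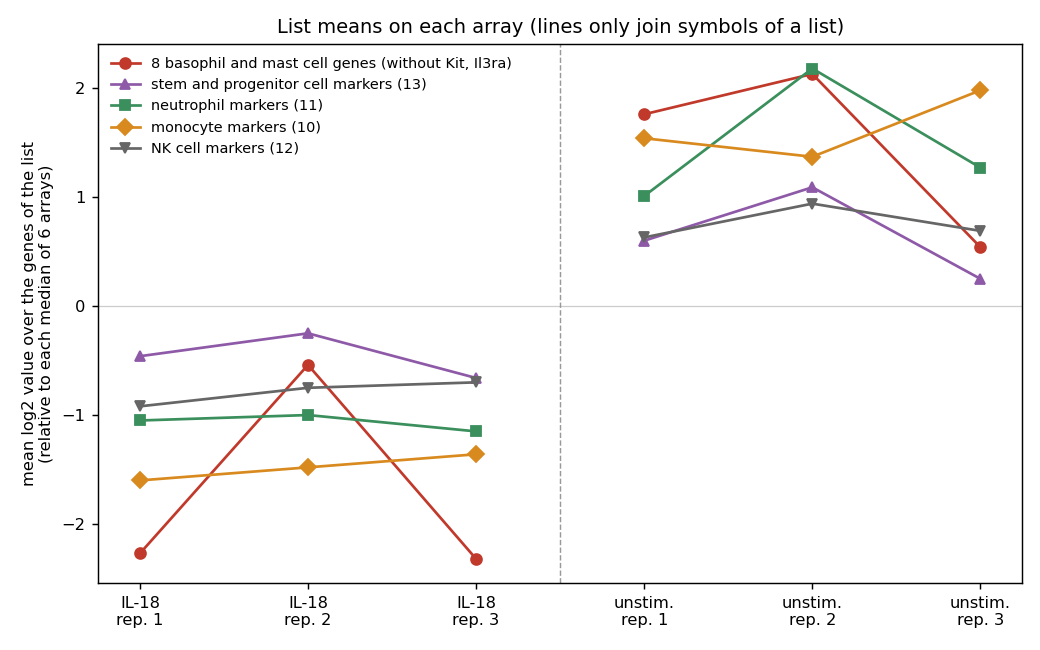
Mean log2 value, relative to the median of the 6 arrays, of the 8 genes that moved together (red) and of 4 marker lists on each array, with the number of genes in brackets. Among the IL-18 arrays the 8 genes range from -2.32 to -0.54 and the progenitor markers from -0.66 to -0.25.

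Of 9 eosinophil markers 7 fell, led by Adgre1 at -3.14 ± 0.20 and Alox15 at -2.48 ± 0.25 (adjusted p 9.73e-07 and 2.56e-05), of which Adgre1 is also a macrophage gene. The eosinophil granule genes Prg2 and Epx had -0.45 each (adjusted p 0.000929 and 0.0196). Of 9 megakaryocyte and erythroid markers 4 fell, among them the platelet genes Ppbp at -1.58 ± 0.20 and Itga2b at -0.85 ± 0.13 (adjusted p 0.000111 and 0.000334), and the transferrin receptor gene Tfrc rose by 3.31 ± 0.11 (adjusted p 2.26e-08). Of 9 markers of group 2 innate lymphoid cells 2 rose, Rora by 2.57 ± 0.09 and Il13 by 0.23 ± 0.08 (adjusted p 2.52e-08 and 0.0471), and Il17rb fell with -0.33 ± 0.11 (adjusted p 0.0306). Of 7 markers of group 3 cells 2 rose, Lta by 2.98 ± 0.17 and Il7r by 0.79 ± 0.15 (adjusted p 5.11e-07 and 0.00194), and Il23r fell with -0.26 ± 0.08 (adjusted p 0.0265). Beside both innate lymphoid cell lists, 36.4% of all genes passed in either direction, and nothing is read from such small counts. The calls of Il13, Il17rb and Il23r ended under 7, 5 and 7 of 13 alternatives, among them leaving out IL-18 replicate 2, with highest adjusted p of 0.248, 0.276 and 0.188 and lowest of 0.018, 0.00172 and 0.00441. Of 9 T cell markers 4 rose, the CD3 chain genes Cd3g by 1.60 ± 0.20, Cd3e by 1.26 ± 0.21 and Cd3d by 1.11 ± 0.14 (adjusted p 9.07e-05, 0.000798 and 0.000136) and Trat1 by 1.16 ± 0.14 (adjusted p 0.000104). Both gates were CD3 negative.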

How the data were processed

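RNA of 6 samples was measured, 3 per group; groups follow the labels, whose protocols describe column extraction, biotin labelling and Affymetrix hybridisation. The deposited values were taken from the authors' table and are read here as log2, a scale inferred from their range of -4.43 to 5.48, with a median of 0 in each of 28815 probe sets; the sources used here do not state the summarisation or normalisation. Without a level, detection cannot be judged, and 3 arrays per group limit the precision. Probe sets with 1 gene symbol (21780) were averaged per gene; 1605 with several and 5430 not listed were left out.

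The groups were compared with limma 3.58.1 (R 4.3.3; lmFit, eBayes) over 19935 genes, with Benjamini-Hochberg adjustment and a threshold of 0.05, after tests on simulated data. Tables and plots used Python 3.11.15, pandas 2.3.3, numpy 2.4.6 and matplotlib 3.10.9.

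The members and lists were chosen with earlier results of these data known. Named genes are the 10 members, up to 3 genes per direction with the largest changes among those passing in each list (2 in marker lists), the 3 genes nearest to each member, Itgam and Klrb1c; other genes named were chosen after their values were seen. Of 211 list genes 188 were measured. Alternatives were trended robust variances, quantile normalisation, array centring, array weights, the replicate number as a block, genes with 1 probe set and leaving out arrays. Promoters came from RefSeq (GRCm38.p6).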

Additional observations from a re-analysis of the deposited data

How the results depend on the processing

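Of 572 values under the 13 alternatives, 529 stayed within the limits set for them. The limit was a fixed ratio for counts of genes and the gene's SD within groups for differences of members. It was therefore widest for the proteases, which varied most within the IL-18 group. Members other than Il3ra kept their direction, which groups without overlap cannot lose when arrays are left out. With IL-18 replicate 2 and unstimulated replicate 3 both left out, chosen after seeing the data, 2207 genes were lower in place of 3331, and the log2 difference was -5.84 for Cpa3, -5.83 for Prss34, -5.93 for Mcpt8, -3.74 for Fcer1a, -3.53 for Ms4a2, -2.88 for Gata2, -3.45 for Cd200r3 and 3.02 for Kit. Under it 2 histamine genes fell, 0 progenitor markers rose, and of the innate lymphoid cell markers 1 of group 2 rose, 0 of group 2 fell and 0 of group 3 fell. Quantile normalization gave 3.31 for Kit and 0 lower group 3 markers. Array centring gave 2 lower histamine genes and 0 lower group 3 markers. Array weights gave 2 higher mast cell genes and 2 lower group 2 markers, and trended robust variances gave 2 higher KIT genes. The fit on genes with 1 probe set had 0 higher histamine genes because Odc1, read by 2 probe sets, was not in it. With the replicate number as a block, 2 mast cell genes rose, 2 histamine genes fell and 1 group 2 marker rose. Deviations of same-numbered arrays correlated at 0.238, 0.008 and -0.02, and those of differently numbered arrays at -0.293 to 0.248. These few correlations cannot decide whether arrays were paired, and the labels give only a replicate number.

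Leaving out 1 array at a time gave 3384 to 4178 genes higher and 2650 to 4406 lower. Differences ran from -5.33 to -3.70 for Cpa3, -5.23 to -3.77 for Prss34, -5.41 to -3.51 for Mcpt8, -3.23 to -2.32 for Fcer1a and -3.06 to -2.13 for Ms4a2. Counts ran from 1 to 2 for higher mast cell genes (2 without IL-18 replicate 3), 0 to 1 for higher KIT genes (1 without unstimulated replicate 2), 2 to 4 for lower histamine genes and 1 to 2 for higher progenitor markers (2 without unstimulated replicate 2). Group 2 markers ran from 1 to 2 higher and 0 to 2 lower, and group 3 markers from 0 to 1 lower. Of 67 genes that passed and were followed through the alternatives, 12 lost the call under at least 1, and the cause was not tested. Most but not all of these genes are named above. The calls of Epx, Prg2, Itgam and Klrb1c were not followed. A filter on low values was not run because centred values hold no level.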
